A study of Mus musculus with 6 samples.

Results

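The genes described here are 34 that mark the excitatory neurons of the cerebral cortex or a layer of it. They were chosen by symbol for their known roles, with no threshold on how they differed between groups but with earlier results of these data known. Of the 34, 33 averaged 10 or more normalized counts across the 6 mice, out of 16127 genes that reached this level and 37620 genes listed. A normalized count is the number of reads of a gene divided by a factor for the depth of its library. The lowest means among the 33 were those of Rspo1 and Nxph4, at 132 and 134 normalized counts. Pou3f1 stood outside, with between 0.91 and 10.6 normalized counts. GENCODE annotates a second gene model over 3003 bases of Pou3f1, so its value was not read as a level.

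RNA was sequenced from the pre-limbic cortex (PLc), which lies medially in the prefrontal cortex, of 3 saline mice (numbers 1, 6 and 10) and 3 ketamine mice (numbers 3, 5 and 9). All were C57Bl/6 mice, labelled as 9 weeks old, with no transgene named. Ketamine, an NMDA receptor blocker, was injected i.p. at 30 mg/kg once a day for 5 days, saline vehicle was injected on the same schedule, and the PLc was dissected 2 days after the last injection. Each mouse gave 1 library, with between 26273436 and 32643726 reads on genes. The comparison addresses whether this regime changed expression of these genes in PLc.

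Excitatory neurons of the cortex release glutamate and are arranged in layers. Neurons of layers 2 to 4 connect mostly within the cortex, those of layer 5 include the cells that project to the brainstem and striatum, those of layer 6 project largely to the thalamus, and layer 6b is a thin band next to the white matter. Transcription factors fix these identities during development and many remain expressed in the adult. PLc lacks a clear layer 4. The genes were placed in 5 classes, namely 7 pan-excitatory genes, 10 tested genes of layers 2 to 4, 6 of layer 5, 6 of layer 6 and 4 of layer 6b. In whole tissue, fewer cells of a type and less RNA per cell cannot be told apart.

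The sequences upstream of 4 transcription factor genes are shown because 2 of them, Neurod6 and Neurod2, were lower in each ketamine mouse than in any saline mouse, while Fezf2 and Bcl11b, which act in the same layer 5 neurons, had fold changes in opposite directions. Each is the stretch of 250 bases before the start of transcription in RefSeq, on build GRCm38.p6, written 5′ to 3′ on the strand of the gene, which is the minus strand for all 4. They lie at chr6:55681264-55681513, chr11:98329646-98329895, chr14:12345866-12346115 and chr12:108003415-108003664. Capitals mark CAGATG, its reverse complement CATCTG, or the palindrome CATATG, which are forms of the E-box that NEUROD factors bind.
Neurod6: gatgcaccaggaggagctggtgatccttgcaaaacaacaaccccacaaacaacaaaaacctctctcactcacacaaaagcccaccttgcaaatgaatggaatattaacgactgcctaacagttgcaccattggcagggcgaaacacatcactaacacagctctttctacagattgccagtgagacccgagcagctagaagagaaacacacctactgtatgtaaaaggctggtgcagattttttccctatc
Neurod2: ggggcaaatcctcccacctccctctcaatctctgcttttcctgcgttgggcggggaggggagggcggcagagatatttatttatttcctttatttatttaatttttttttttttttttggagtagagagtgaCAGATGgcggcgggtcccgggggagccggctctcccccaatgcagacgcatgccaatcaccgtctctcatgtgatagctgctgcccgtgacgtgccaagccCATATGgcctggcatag
Fezf2: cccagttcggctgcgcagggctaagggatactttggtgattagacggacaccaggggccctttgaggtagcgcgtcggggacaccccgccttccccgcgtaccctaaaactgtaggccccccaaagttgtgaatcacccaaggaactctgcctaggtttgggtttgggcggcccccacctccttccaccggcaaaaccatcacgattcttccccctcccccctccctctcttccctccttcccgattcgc
Bcl11b: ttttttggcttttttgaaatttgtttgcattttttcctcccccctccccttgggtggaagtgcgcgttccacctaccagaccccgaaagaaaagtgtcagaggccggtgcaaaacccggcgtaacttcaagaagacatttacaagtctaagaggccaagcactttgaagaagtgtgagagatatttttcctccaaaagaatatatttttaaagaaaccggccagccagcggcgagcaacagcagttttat
Neurod2 holds one copy of each motif, starting 118 and 17 bases before the start of transcription, and the other 3 windows hold neither. RefSeq gave 32 such windows for 25 of the 33 genes. CAGATG on either strand was in 4 of the 32 (Cux2, Etv1, Neurod2 and Slc17a6) and in 14.4% of all 32851 windows of the same length. CATATG was in 3 of the 32 (Neurod1, Neurod2 and Slc17a6) and in 3.46% of all.

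Several libraries stood apart from others of their group in markers of other cells. Saline mouse 10 had a sum of 402782 normalized counts over 8 oligodendrocyte genes, against 47138 and 59983 in saline mice 6 and 1 and between 111556 and 171337 in ketamine mice. Over 15 tested striatal genes the sum was 51445 and 26304 in ketamine mice 3 and 5, against 5969 to 8327 in the other 4 mice. Over 7 genes of olfactory bulb mitral and tufted cells it was 8831 in ketamine mouse 9, 1573 and 1202 in the other ketamine mice, and 172 to 266 with saline. The defining genes were present, since Adora2a of the striatum had 2395 normalized counts in ketamine mouse 3 against 67.1 in saline mouse 1, and Tbx21 of mitral and tufted cells had 362 in ketamine mouse 9 against 1.92. All 8 GABAergic genes had fold changes above 0 (median log2 fold change 1.21), and 7 of them were higher in each ketamine mouse than in any saline mouse, beside 5.69% of all genes. The part of these cells in the results below was not tested.

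**Figure D1:**
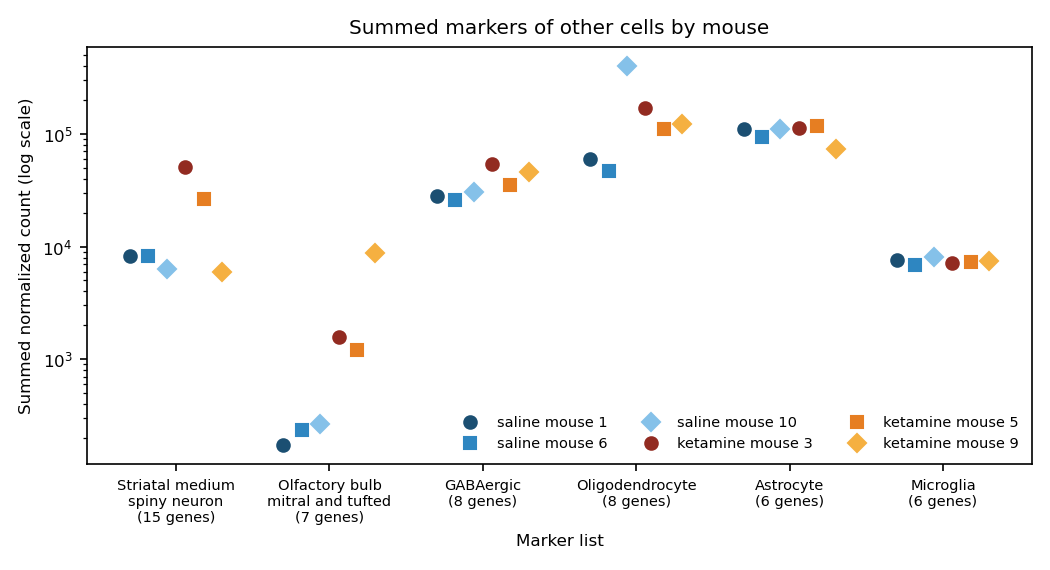
Summed normalized counts (y axis, log scale) of 6 lists of marker genes in each of the 6 mice, with 1 point per mouse. Saline mouse 10 is highest for oligodendrocyte genes (402782), ketamine mice 3 and 5 for striatal genes (51445 and 26304) and ketamine mouse 9 for olfactory bulb genes (8831), while microglial sums lie between 6930 and 8049.

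Some of the 33 genes were abundant in saline mice and others were low, and none of them tells PLc from other cortex. Slc17a7, the vesicular glutamate transporter VGLUT1 of cortical excitatory neurons, stood at rank 40 of 16093 genes by normalized counts per kilobase of exon in saline mice, at 14810. Pcp4 (5517), Nrn1 (3885), Lmo4 (2726) and Neurod6 (1654) followed among the 33 genes on the same per-kilobase scale. The lowest were Foxp2, at 27.1 (rank 12945 of 16093), and Nxph4, at 42.6 (rank 11972). The exons of Pcp4 share 243 of their 641 bases with Igsf5 on the same strand, which averaged 10.1 normalized counts. How reads on the shared bases were counted is not given, so the level of Pcp4 is uncertain.

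Across the 33 genes, differences between the groups lay in both directions. The log2 fold change (log2FC) is given as ketamine minus saline on the log2(normalized count + 1) scale, with its standard error after ±. Its median was -0.16, with 14 genes above 0 and 19 below, beside a median of -0.01 and 53.0% of genes below 0 among all 16127 tested. With single mice left out the median of the 33 ran from -0.41, without saline mouse 10, to -0.09. By limma's test on log2(normalized count + 1), 0 of the 33 had an adjusted p under 0.05, as did 0.0% of all genes. The same held for edgeR (0.0% of all genes), and DESeq2 called 1, Neurod6, where it called 1.13% of all genes. An unadjusted p under 0.05 by limma was found for 11 of the 33, or 33.3%, beside 5.81% of all genes. By edgeR 8 of the 33 had one, beside 6.24% of all genes. The 3 ketamine mice did not overlap with the 3 saline mice for 7 of the 33, or 21.2%, beside 10.3% of all genes. Ketamine values all lay below saline values for 5 of the 33, beside 4.66% of all genes, and above for 2, beside 5.69%. With 3 mice in each group the smallest p of an exact permutation test is 0.1. These genes share the 6 libraries and were chosen with earlier results of these data known, so the counts are a description.

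**Figure D2:**
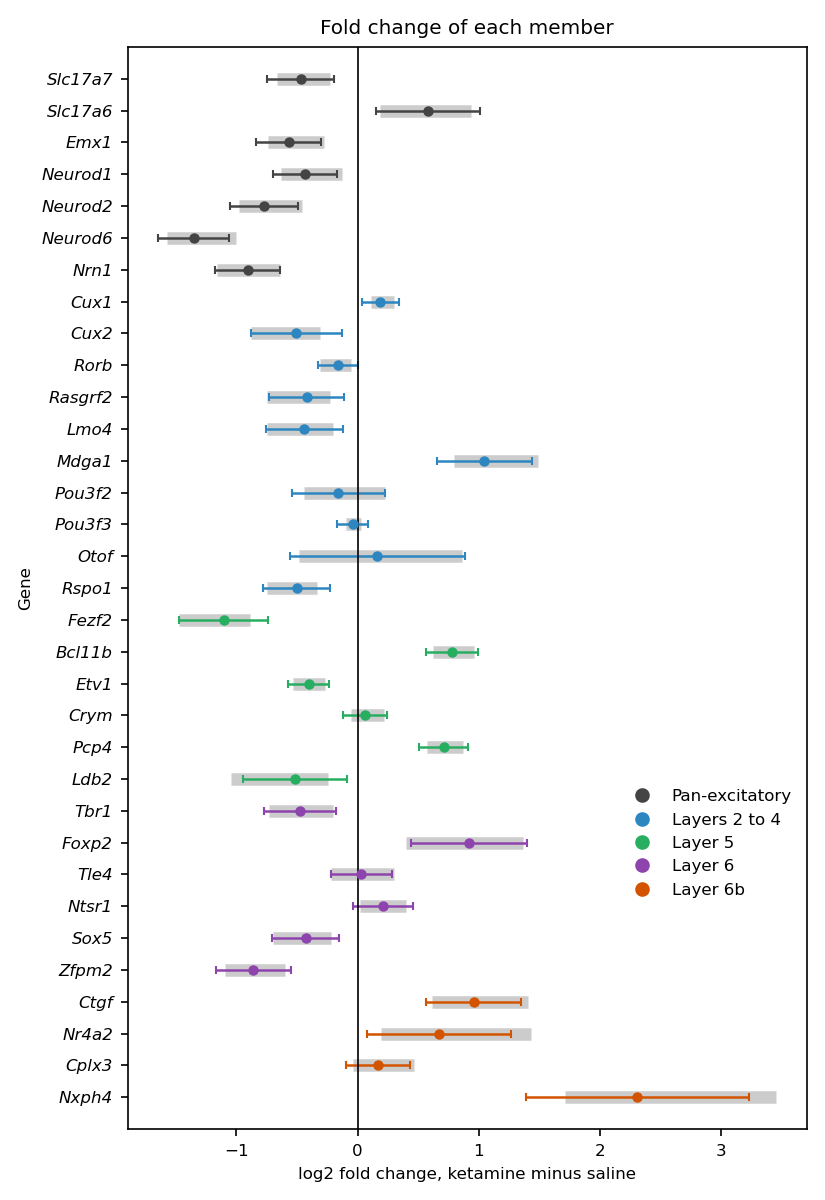
Log2 fold change, ketamine minus saline (x axis), of the 33 tested genes, with bars for the standard error by limma and grey bands for the range with each mouse left out in turn. Pan-excitatory genes other than Slc17a6 lie below 0, and all 4 layer 6b genes lie above 0, with Nxph4 at 2.31.

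Of the 7 pan-excitatory genes, 6 had lower means in ketamine mice and 1 a higher mean, with a median log2 fold change of -0.57. Neurod6, a basic helix-loop-helix factor of postmitotic pyramidal neurons (ENSMUSG00000037984, mm9 chromosome 6, 55627812 to 55631257, minus strand), had 3365, 3275 and 4051 normalized counts (saline 1, 6, 10) against 856, 1884 and 1663 (ketamine 3, 5, 9). The groups did not overlap, and the means were 3564 ± 425 with saline and 1468 ± 542 with ketamine (SD, n = 3 per group). The log2FC came to -1.35 ± 0.293 (limma adjusted p = 0.368). With DESeq2 Neurod6 fell by 1.28 ± 0.304 (adjusted p = 0.00459), and with edgeR the value was -1.27 (adjusted p = 0.388). Leaving out single mice gave limma values from -1.57 to -1.002.

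Neurod2, a factor of the same family, had 2393, 2363 and 3237 normalized counts (saline 1, 6, 10) against 1000, 2059 and 1787 (ketamine 3, 5, 9). No ketamine mouse reached the lowest saline mouse, and the log2FC came to -0.77 ± 0.283 (limma adjusted p = 0.776). Nrn1, which encodes the membrane-anchored protein neuritin, had 7643, 7305 and 5636 normalized counts (saline 1, 6, 10) against 2489, 3715 and 5144 (ketamine 3, 5, 9). The groups did not overlap here either, although saline mouse 10 and ketamine mouse 9 lay close (log2FC -0.91 ± 0.271, limma adjusted p = 0.628). Neurod1, also of this family, overlapped between groups, with 439 normalized counts in ketamine mouse 9 above the 426 of saline mouse 6. Its log2FC came to -0.43 ± 0.265.

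**Figure D3:**
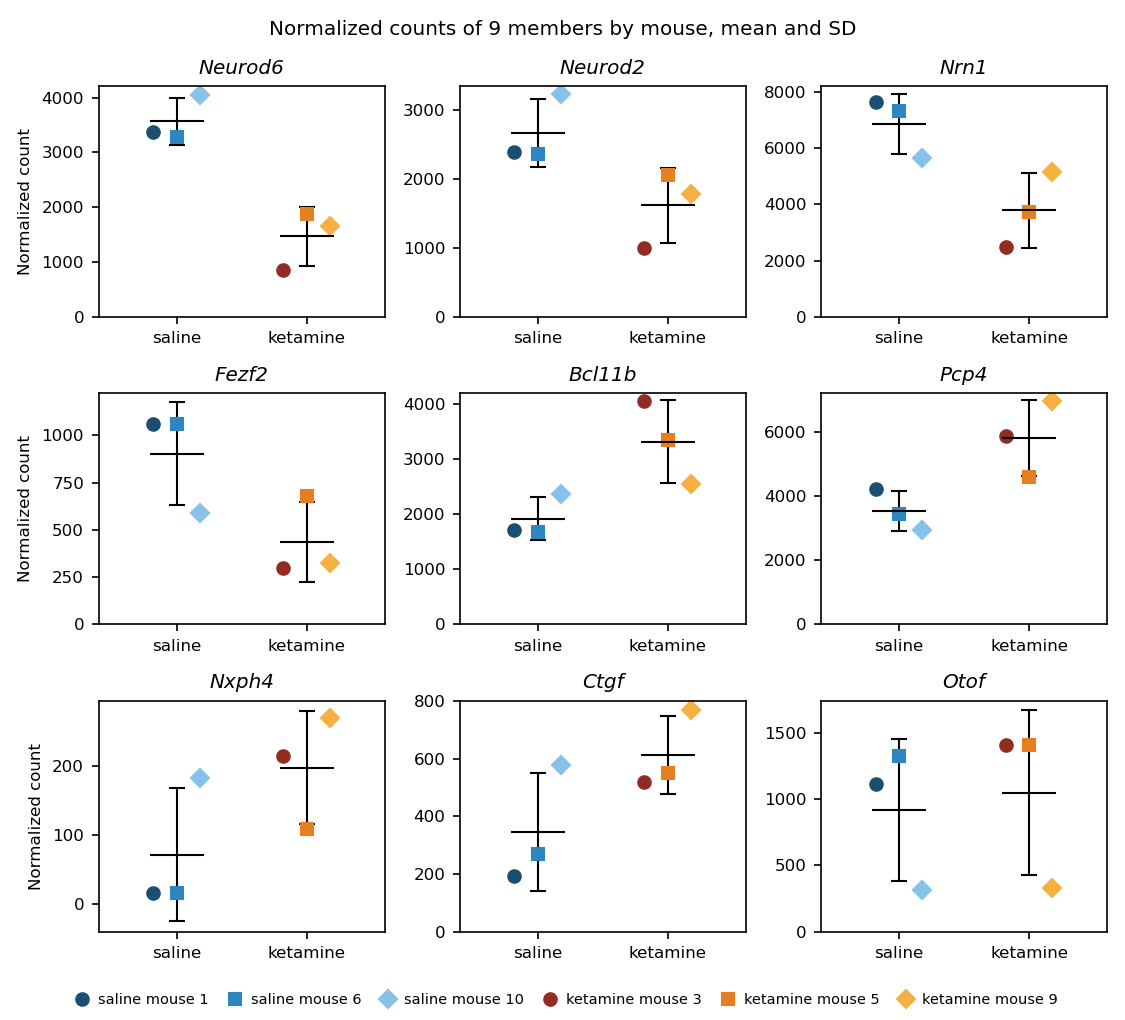
Normalized counts (y axis) of 9 genes in saline and ketamine mice, with a point for each mouse and black bars for the mean and SD of each group. Neurod6, Neurod2, Nrn1, Bcl11b and Pcp4 do not overlap between groups, whereas saline mouse 10 lies among the ketamine mice for Fezf2, Nxph4 and Ctgf, and beside ketamine mouse 9 for Otof.

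Slc17a7 had 49417, 48207 and 32973 normalized counts (saline 1, 6, 10) against 22152, 40369 and 32985 (ketamine 3, 5, 9). Saline mouse 10 lay below 2 of the 3 ketamine mice, and the log2FC came to -0.47 ± 0.276. Emx1, a homeobox gene of the embryonic and adult cortex, likewise had a log2FC of -0.57 ± 0.267, with 441 normalized counts in saline mouse 10 and 446 in ketamine mouse 9. Slc17a6 differed from the rest of its class. It encodes VGLUT2, which is typical of thalamic and other subcortical neurons and of the olfactory bulb, and had 414, 401 and 858 normalized counts (saline 1, 6, 10) against 1352, 503 and 701 (ketamine 3, 5, 9), a log2FC of 0.58 ± 0.426. Ketamine mouse 3 was the lowest of its group for the other 6 genes of the class and the highest for Slc17a6. This mouse also had the highest striatal sum. Over 7 thalamic genes the sum was 1340, 1064 and 2727 (saline 1, 6, 10) against 2371, 1559 and 1845 (ketamine 3, 5, 9). The part of striatal or thalamic cells in these values was not tested. Without ketamine mouse 3 the median of the class was -0.28, and Slc17a7, Emx1, Neurod1 and Neurod2 came to -0.23, -0.28, -0.13 and -0.46.

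Of the 10 genes of layers 2 to 4, 3 were above 0 and 7 below, with a median of -0.16. The median was -0.39 without saline mouse 10, -0.07 without saline mouse 1 and -0.09 without saline mouse 6. None of the 10 was non-overlapping between groups. Cux2, a homeobox factor of upper-layer neurons, had 4319, 4233 and 1951 normalized counts (saline 1, 6, 10) against 2020, 3485 and 1768 (ketamine 3, 5, 9). Saline mouse 10 was thus within the range of the ketamine mice, and the log2FC of -0.51 ± 0.374 became -0.88 without it. Its relative Cux1 differed less, with a log2FC of 0.19 ± 0.151. Otof, the calcium sensor otoferlin and a marker of layer 2/3 neurons, had 1116, 1323 and 314 normalized counts (saline 1, 6, 10) against 1412, 1408 and 328 (ketamine 3, 5, 9). Saline mouse 10 and ketamine mouse 9 stood far below the other 4 mice, so the spread lay within both groups. The log2FC of 0.16 ± 0.722 was -0.49 without saline mouse 10 and 0.86 without ketamine mouse 9.

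Rasgrf2, an exchange factor for RAS and RAC, and Lmo4, a LIM-only transcriptional cofactor, had log2 fold changes of -0.42 ± 0.31 and -0.44 ± 0.318. Without saline mouse 10 each came to -0.75, and Lmo4 came to -0.21 without ketamine mouse 3. Mdga1, a membrane-anchored adhesion molecule, went the other way. It had 436, 397 and 1042 normalized counts (saline 1, 6, 10) against 1488, 863 and 1244 (ketamine 3, 5, 9), and its log2FC of 1.05 ± 0.389 (limma adjusted p = 0.781) was 1.49 without saline mouse 10. Rorb, a nuclear receptor of layer 4 neurons, had 950 to 1361 normalized counts with saline against 969 to 1131 with ketamine (log2FC -0.16 ± 0.167). The POU-domain factors Pou3f2 and Pou3f3 had log2 fold changes of -0.16 ± 0.386 and -0.04 ± 0.126. Pou3f3 spanned only 2080 to 2484 normalized counts over all 6 mice. Rspo1, a secreted activator of WNT signalling, had 151 normalized counts in ketamine mouse 3 and 89.4 and 89.7 in ketamine mice 5 and 9, against between 127 and 191 in saline mice (log2FC -0.50 ± 0.277).

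In layer 5 the 6 genes split evenly, with 3 above 0 and 3 below, and a median of -0.17. With single mice left out the median ran from -0.29, without saline mouse 10, to -0.05, without saline mouse 6. Fezf2, the zinc finger factor needed for subcerebral projection neurons (mm9 chromosome 14, 13174406 to 13178379), had 1059, 1060 and 590 normalized counts (saline 1, 6, 10) against 299.5, 676 and 326 (ketamine 3, 5, 9). Ketamine mouse 5 lay above saline mouse 10, and every ketamine mouse lay below saline mice 1 and 6. The log2FC came to -1.11 ± 0.367 (limma adjusted p = 0.696) and ranged from -1.48 to -0.89 when single mice were left out. Bcl11b, which encodes CTIP2 and acts downstream of FEZF2 in these neurons, differed in the other direction. It had 1707, 1682 and 2359 normalized counts (saline 1, 6, 10) against 4049, 3334 and 2544 (ketamine 3, 5, 9), with each ketamine value above each saline value (log2FC 0.78 ± 0.215, limma adjusted p = 0.569, 0.0944 by DESeq2). Striatal medium spiny neurons also express Bcl11b, and its order among the ketamine mice was that of the striatal sums. Across all 6 mice the orders differed. Ketamine mouse 9 had the lowest striatal sum of all (5969, against 6365 to 8327 with saline) but more Bcl11b than any saline mouse. The part of striatal cells in the Bcl11b values was not tested.

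Pcp4, a small calmodulin-binding protein, had 4215, 3433 and 2961 normalized counts (saline 1, 6, 10) against 5889, 4587 and 6973 (ketamine 3, 5, 9). The ketamine values all exceeded the saline values, that of mouse 9 most (log2FC 0.71 ± 0.203, limma adjusted p = 0.579, 0.0962 by DESeq2). Etv1, an ETS factor of layer 5, had 1853 to 2658 normalized counts with saline against 1492 to 1776 with ketamine. The groups did not overlap, but the difference was small (log2FC -0.40 ± 0.166, limma adjusted p = 0.851). Ldb2, a cofactor of LIM-domain factors, had 1987, 2031 and 670 normalized counts (saline 1, 6, 10) against 921, 1251 and 802 (ketamine 3, 5, 9). Saline mouse 10 was the lowest of all 6 mice, and the log2 fold change moved from -0.52 ± 0.432 to -1.04 without it. Crym, a thyroid hormone-binding protein, had a log2FC of 0.06 ± 0.181.

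**Figure D4:**
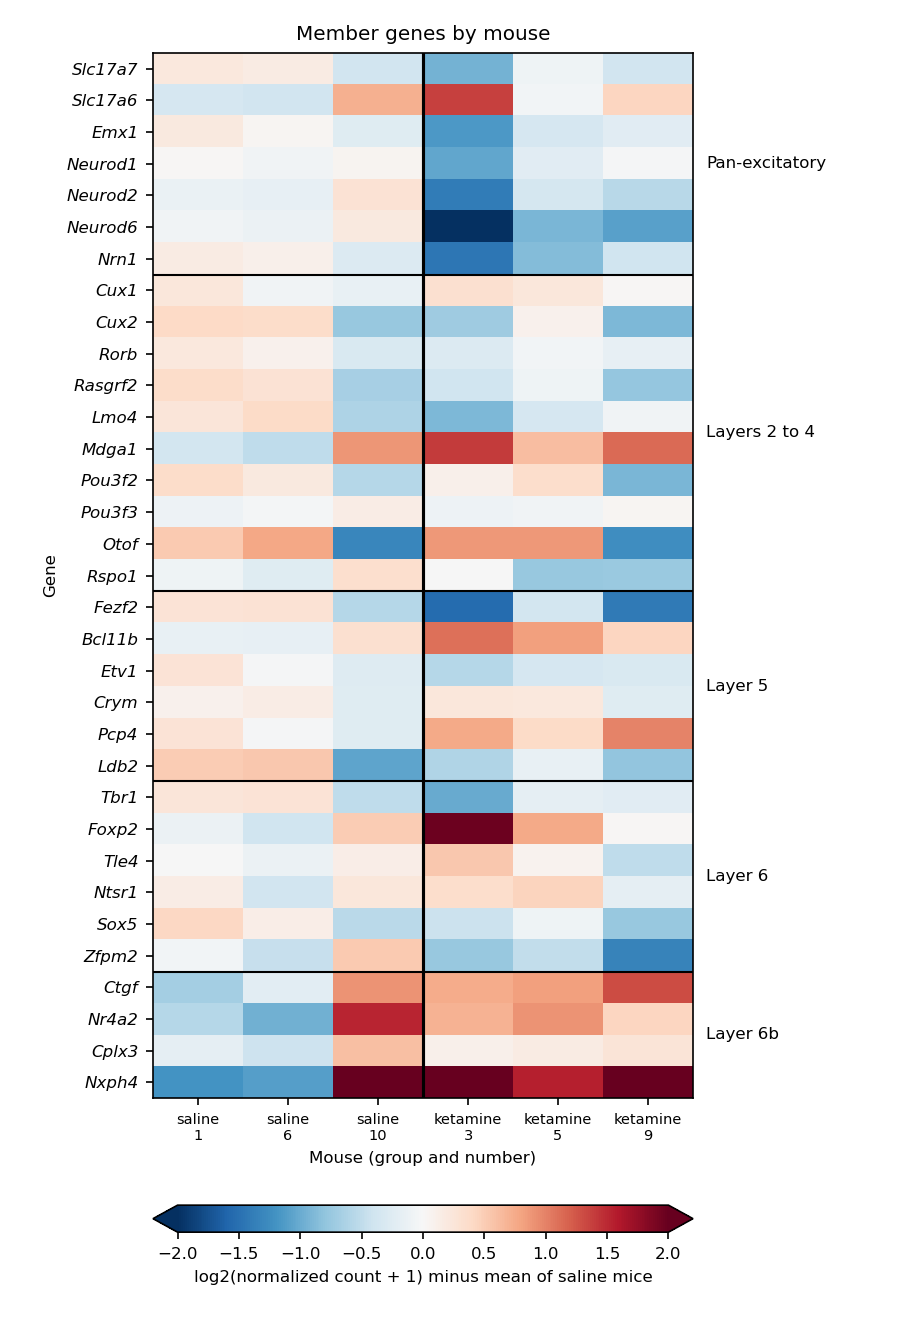
Each cell is the log2(normalized count + 1) of a gene in a mouse minus the mean of the saline mice, for the 33 tested genes by class (rows) and the 6 mice (columns), with colours clipped at -2 and 2. Ketamine mouse 3 is lowest for 6 of 7 pan-excitatory genes within its group. Among the 4 layer 6b genes, saline mouse 10 lies within the ketamine range for Nxph4 and Ctgf and above it for Nr4a2 and Cplx3.

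Layer 6 genes also split evenly, with 3 of 6 above 0 and a median of -0.20, which was 0.02 without ketamine mouse 9 and -0.10 without saline mouse 1. Zfpm2, a cofactor of GATA factors, had 430, 322 and 639 normalized counts (saline 1, 6, 10) against 264, 317 and 176 (ketamine 3, 5, 9). The ketamine values all lay below the saline values, by a narrow margin between ketamine mouse 5 and saline mouse 6 (log2FC -0.86 ± 0.311, limma adjusted p = 0.771). Tbr1, the T-box factor of layer 6 corticothalamic neurons, had 4650, 4743.5 and 2753 normalized counts (saline 1, 6, 10) against 1955, 3472 and 3347 (ketamine 3, 5, 9), a log2FC of -0.47 ± 0.297. Saline mouse 10 again lay within the range of the ketamine mice, and the value was -0.73 without it and -0.21 without ketamine mouse 3. Foxp2, a forkhead factor of layer 6 and of striatal neurons, had 326, 268 and 502 normalized counts (saline 1, 6, 10) against 1375, 600 and 359 (ketamine 3, 5, 9), a log2FC of 0.92 ± 0.48. Like Bcl11b, it was highest in ketamine mouse 3 and lowest of its group in ketamine mouse 9, and without ketamine mouse 3 its log2 fold change was 0.40. Saline mouse 10 lay above ketamine mouse 9, and the part of striatal cells in the Foxp2 values was not tested. Sox5, an SRY-related factor of deep-layer neurons, had a log2FC of -0.43 ± 0.277, which was -0.70 without saline mouse 10. The corepressor Tle4 and the neurotensin receptor Ntsr1 had values of 0.03 ± 0.254 and 0.21 ± 0.248.

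All 4 layer 6b genes had fold changes above 0, with a median of 0.82, and all 4 overlapped between the groups through saline mouse 10. The median was 1.42 without that mouse, 0.50 without saline mouse 1 and 0.53 without saline mouse 6, and 0.54 with DESeq2 and 0.55 with edgeR on all 6 mice. Nxph4, a secreted neurexin ligand (ENSMUSG00000040258, mm9 chromosome 10, 126962529 to 126971615, minus strand), had 15.3, 16.4 and 182 normalized counts (saline 1, 6, 10) against 213, 108 and 269 (ketamine 3, 5, 9). Saline mouse 10 stood far above the other saline mice and within the ketamine range. The log2FC came to 2.31 ± 0.921 (limma adjusted p = 0.825), and DESeq2 gave 1.46 ± 1.14. Without saline mouse 10 it was 3.46 (limma adjusted p = 0.158). Ctgf, a secreted matrix-associated protein, had 193, 269 and 578 normalized counts (saline 1, 6, 10) against 521, 550 and 770.5 (ketamine 3, 5, 9), a log2FC of 0.96 ± 0.392 (limma adjusted p = 0.851). Its exons share 570 bases with Gm15270 on the opposite strand, which averaged 28.9 normalized counts. Nr4a2, a nuclear receptor also found in the claustrum, had 209, 159 and 889.5 normalized counts (saline 1, 6, 10) against 501, 579.5 and 415 (ketamine 3, 5, 9). Saline mouse 10 was the highest of all mice for Nr4a2 and for Cplx3, a complexin of synaptic release, which had 211 to 426 normalized counts with saline against 303 to 335 with ketamine. The log2 fold changes of Nr4a2 and Cplx3 were 0.67 ± 0.595 and 0.17 ± 0.265, and 1.43 and 0.47 without saline mouse 10. In the oligodendrocyte genes, too, saline mice 1 and 6 were lower than the other 4 mice, and the part of this in the layer 6b values was not tested.

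**Figure D5:**
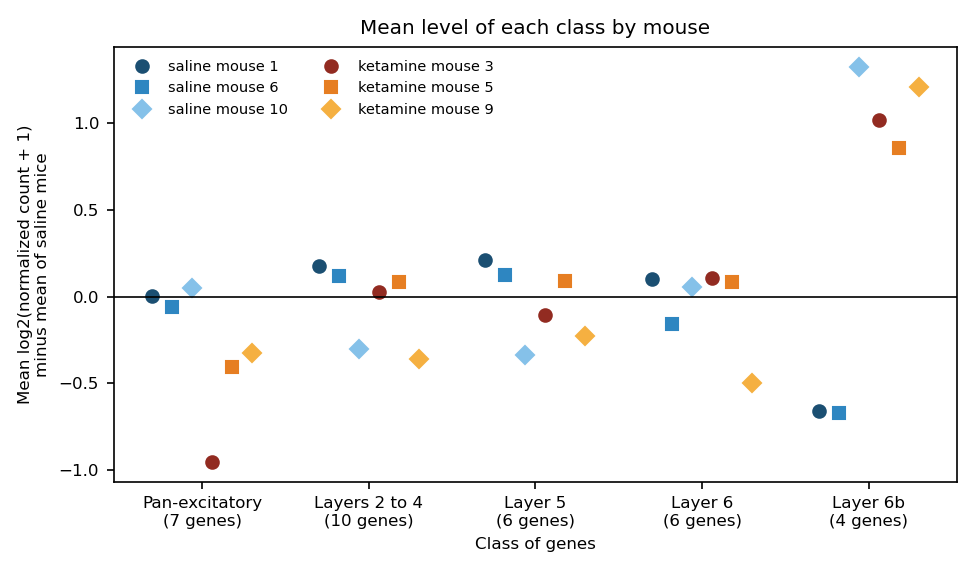
Mean log2(normalized count + 1) of each class minus the mean of the saline mice (y axis), with a point for each of the 6 mice. The class means of the saline mice lie between -0.06 and 0.05 for pan-excitatory genes, although single genes of the class differ more. For layer 6b genes saline mouse 10 stands with the ketamine mice, at 1.33 against between 0.86 and 1.21.

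Averaged by class and set against the saline mean, pan-excitatory genes stood at -0.95, -0.41 and -0.32 on the log2 scale in ketamine mice 3, 5 and 9, while the saline mice spanned -0.06 to 0.05. These saline means average over genes that differed in both directions. Saline mouse 10 lay below saline mice 1 and 6 for 3 of the 7 genes and above them for 4. Its median distance from the mean of those mice was 0.41 for this class, beside 0.26 for all genes. The class means of the saline mice spread far wider for layer 6b genes, at -0.66, -0.67 and 1.33 in mice 1, 6 and 10. Ketamine mice 3, 5 and 9 stood at 1.02, 0.86 and 1.21. For layers 2 to 4 the means were -0.30 in saline mouse 10 and -0.36 in ketamine mouse 9 and lay between 0.03 and 0.18 in the other mice. For layer 6 ketamine mouse 9 was lowest, at -0.50. Relative to the pan-excitatory mean of the same mouse, layers 2 to 4 stood at 0.98, 0.49 and -0.04 in ketamine mice 3, 5 and 9 and at 0.17, 0.18 and -0.35 in saline mice 1, 6 and 10, which overlapped. Layer 6b stood at 1.97, 1.26 and 1.53 in these ketamine mice and at -0.66, -0.61 and 1.27 in the saline mice, again overlapping through mouse 10.

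Saline mouse 10 lay outside the interval between saline mice 1 and 6 for 33 of the 33 genes, 17 times below and 16 times above, where this was so for 83.4% of all tested genes. Its distance from the mean of these mice exceeded 1 on the log2 scale for 8 genes (24.2%), against 8.44% of all genes. The median distance was 0.76 for the 33 genes and 0.26 for all genes, while saline mice 1 and 6 differed by a median of 0.14 and 0.13. Saline mice 1 and 6 were the 2 lowest of all 6 mice for 8 genes (24.2%), namely Slc17a6, Mdga1, Bcl11b, Foxp2 and the 4 layer 6b genes, and for 12.1% of all genes. Saline mouse 10 and ketamine mouse 9 were the 2 lowest for 7 genes (21.2%), namely Cux2, Rasgrf2, Pou3f2, Otof, Crym, Ldb2 and Sox5, and for 16.6% of all genes. Without saline mouse 10, an unadjusted p under 0.05 by limma was found for 18 of the 33, beside 11.0% of all genes, and still 0 of the 33 had an adjusted p under 0.05.

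Of the 33 genes, 9 were listed as also known from the striatum, olfactory bulb, thalamus or claustrum (Bcl11b, Foxp2, Pcp4, Crym, Tbr1, Slc17a6, Etv1, Nr4a2 and Rorb). Their median log2 fold change was 0.58, with 6 above 0 and 3 below, and it was 0.19 without ketamine mouse 3. The other 24 had a median of -0.43, with 8 above 0 and 16 below, which ran from -0.54 to -0.25 with single mice left out and was -0.25 without ketamine mouse 3. The list may leave out other genes that these regions express. The shared genes were listed from general knowledge, with earlier results of these data known. They include Slc17a6, the only pan-excitatory gene above 0, and Bcl11b, Pcp4 and Crym, the only layer 5 genes above 0. The directions left in these classes therefore follow from the list. Without the shared genes the pan-excitatory class had 6 of 6 genes below 0 and a median of -0.67. Layer 5 was left with Fezf2 and Ldb2, both below 0.

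Other genes of cortical excitatory neurons, outside the 34, were listed for comparison. Of 12 broad excitatory genes, 11 were below 0 and 1 above, with a median log2 fold change of -0.55, and for 6 the ketamine values all lay below the saline values, beside 4.66% of all genes. Those with the smallest p were Nptx1, a neuronal pentraxin, with 11138, 9944 and 12100 normalized counts (saline 1, 6, 10) against 5608, 8937 and 4574 (ketamine 3, 5, 9), a log2FC of -0.85 ± 0.249 (limma adjusted p = 0.617), and Itpka, an inositol trisphosphate kinase (log2FC -0.67 ± 0.226). Of 7 tested upper-layer genes, 4 were above 0 and 3 below, with a median of 0.03, and the smallest p-values were those of Inhba (0.37 ± 0.295) and Stard8 (-0.34 ± 0.364). Of 8 layer 5 genes, 3 were above 0 and 5 below, with a median of -0.17, led by Npr3 (-0.45 ± 0.166) and Rbp4 (-0.49 ± 0.234). Of 6 layer 6 genes, 5 were above 0 and 1 below, with a median of 0.37, led by Moxd1 (0.41 ± 0.157) and Syt6. Syt6, a synaptotagmin, had 506, 351 and 404 normalized counts (saline 1, 6, 10) against 1763, 1277 and 1846 (ketamine 3, 5, 9). Its log2FC came to 1.95 ± 0.203 (limma adjusted p = 0.124, 5.59e-13 by DESeq2), larger than that of any of the 6 layer 6 genes among the 33. By limma 0 of these 33 comparison genes had an adjusted p under 0.05. An unadjusted one was found for 8, beside 5.81% of all genes, and DESeq2 called 1, Syt6, beside 1.13% of all genes.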

How the data were processed

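RNA Seq of PLc tissue was analysed in 3 saline and 3 ketamine mice, each with its own library. The authors aligned 100 base pair paired-end reads to mm9 with Tophat (2.0.11), counted them per gene with HTSeq and used DESeq2. The annotation, strand setting and filters were not given in the sources used here. The deposited values are signal on a linear scale: the authors' gene counts after division by each library's size factor. Columns were matched to samples by mouse number. Per library, 100.0% of values fell within 0.0051 of a multiple of 1 step, so whole reads were recovered, between 26273436 and 32643726 per library.

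Log2(normalized count + 1) was compared between groups with limma 3.58.1 (trend, R 4.3.3) for the 16127 genes that averaged 10 or more over the 6 mice, and two-sided p-values were adjusted over all of them by the method of Benjamini and Hochberg. On this scale, differences of low genes are understated. Single genes were also compared with an exact permutation test. Alternatives were DESeq2 1.42.0 and edgeR 4.0.16 on recovered reads, other pseudocounts, filters and scalings, limma without trend, and each mouse left out. Gene coordinates and lengths are those of GENCODE M1 on mm9. Every one of the 33 genes is named, and from each comparison list the 2 with the smallest p. The genes, classes and lists were chosen with earlier results of these data known. The labels give each library a number of its own, read here as a mouse, and which mice shared a cage or a day is not given in the sources used here.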

Additional observations from a re-analysis of the deposited data

How the results depend on the processing

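Under the alternatives other than left-out mice, 296 of 297 values of single genes kept their direction and their side of the threshold, and the exception was Neurod6, which passed it with DESeq2 (-1.28). DESeq2 called 182 genes of all those tested and 1 of the 33, where limma called 0 of either. With ketamine mouse 5 or ketamine mouse 9 left out, limma called 1 gene of all those tested, and with any other mouse left out 0, so the range was 0 to 1. At an unadjusted p under 0.05, limma found 937 genes and edgeR 1007. With a mouse left out, the median of pan-excitatory genes ranged from -0.74 to -0.28, lowest in size without ketamine mouse 3, and that of layer 6 genes from -0.29 to 0.02. The direction held in every alternative for 27 of the 33 genes. The other 6 changed sign with a mouse left out, when their values ranged from -0.44 to 0.22 for Pou3f2, -0.0925 to 0.0316 for Pou3f3, -0.49 to 0.86 for Otof, -0.0571 to 0.22 for Crym, -0.22 to 0.30 for Tle4 and -0.0347 to 0.47 for Cplx3. The cause was not tested. Scaling by TMM factors or the upper quartile left the median of all genes at 0.0005 and -0.006. No paired analysis was possible because the mouse numbers differ between the groups. The lowest of the 33 genes, Rspo1, averaged 132 normalized counts, and no limit from depth was tested.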
